A study of Homo sapiens with 8 samples.

Results

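Replication-dependent histone genes encode the core histones H2A, H2B, H3 and H4 and the linker histone H1 that package newly copied DNA. They were taken here as the protein-coding genes whose GENCODE 29 symbol starts with HIST1H, HIST2H, HIST3H or HIST4H. The annotation holds 71 such genes, of which 36 were matched by Ensembl ID among the 57736 IDs of the count table. The other 35 have no matched ID and were not analysed here. All 6 H1 genes were matched, with 9 of 17 H2A, 10 of 18 H2B, 7 of 15 H3 and 4 of 15 H4 genes, so sums per histone type are sums over part of each type. By cluster, the matched genes were 23 of 55 in HIST1 on chromosome 6, 9 of 12 in HIST2 and 3 of 3 in HIST3 on chromosome 1, and 1 of 1 in HIST4 on chromosome 12.

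RNA came from RMG1, an established human line of ovarian clear cell carcinoma, in 4 groups of 2 libraries. Wild-type cells had ARID1A and CAPH2 intact, and the knockout cells had ARID1A disrupted by CRISPR and CAPH2 intact. The shRNA control cells carried a control hairpin with both genes intact, and the knockdown cells carried a hairpin against CAPH2 with ARID1A intact. CAPH2 is encoded by NCAPH2 and belongs to condensin II, which compacts chromosomes, and ARID1A belongs to SWI/SNF, which remodels chromatin. The labels do not say whether the knockout cells are 1 clone, and nothing in them ties the 2 libraries of a group to separate cultures. The p-values therefore measure a spread between libraries that may be only technical.

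Histone mRNAs of this class are made mainly while DNA is copied and fall when replication stops. The coactivator NPAT drives their transcription at histone locus bodies. Their mRNAs have no introns and end, in place of a poly(A) tail, in a short stem-loop that the stem-loop binding protein SLBP holds during cleavage, translation and decay. The libraries were made with a total RNA kit, per the labels' protocols. In bulk RNA, fewer cells in S phase and less histone mRNA per cell cannot be told apart.

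The stem-loop was looked for by the letters of its consensus, 16 bases that begin with GG, end with CC and hold a loop rich in T, on the sense strand and within the first 100 bases after the stop codon of the GENCODE 29 transcripts. It was found in 18 of the 22 matched histone genes with at least 40 annotated bases there (81.8%), and in 52 of 19202 other protein-coding genes (0.271%). The other 14 matched histone genes have too short an annotation for the search. The search fixed GG, CC and some of the T and A bases between them, so likeness at those bases was set in advance. The loops of 5 genes that changed in a comparison, or that differ in the stem, are given below 5′ to 3′ with the stem-loop in capitals.
HIST1H4H: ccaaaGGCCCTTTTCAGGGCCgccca
HIST1H2BC: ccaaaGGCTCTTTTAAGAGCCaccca
HIST1H2BL: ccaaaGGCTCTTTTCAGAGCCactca
HIST3H2BB: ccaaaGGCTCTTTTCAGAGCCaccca
HIST1H2AG: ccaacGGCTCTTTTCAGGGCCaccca
Among the tested genes with the letters, 3 rose and 5 fell of 17 in the knockout and 0 rose and 3 fell of 17 in the knockdown (adjusted p under 0.05). These are 47.1% and 17.6% of them, against 34.5% and 15.8% of all genes tested in the 2 comparisons. Of the 4 tested genes without them in the annotated bases, 0 changed in the knockout and 2 fell in the knockdown (HIST1H1E and HIST1H4C). HIST1H4C and HIST1H1T have only 51 annotated bases after the stop and HIST1H1E has 57. The loops found began 23 to 68 bases after the stop, so a loop in those genes could have been missed. The share of 81.8% may therefore be too low, and these genes cannot be said to lack a loop.

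RefSeq promoter windows from 250 bases before to 50 bases after the start (GRCh38.p14) were matched for 32 of the 36 genes. The motifs searched, on both strands, were the octamer ATTTGCAT bound by OCT1, the TATA box letters TATAAA, the letters CCAAT bound by NF-Y, and the H1 box, whose letters are AAACACA. None of the 4 motifs holds another. The H1 box was in 6 of 6 H1 promoters and in 5.64% of 35116 RefSeq promoters. The octamer was in 6 of 10 H2B and 6 of 8 H2A promoters and in 1.77% of all, and in 0 of 6 H1 promoters. CCAAT was in all 29 matched H1, H2A, H2B and H3 promoters, in 0 of 3 H4 promoters and in 34.6% of all, while TATAAA was in 23 of 32 and in 11.5% of all. A match of letters is a description and not a measured binding site. The promoters of the H1 genes that fell in one comparison each, and of the H2B gene that fell in both, are printed 5′ to 3′ on the gene's strand with the searched motifs of either strand in capitals.
HIST1H1E (chr6:26156079-26156378, plus strand): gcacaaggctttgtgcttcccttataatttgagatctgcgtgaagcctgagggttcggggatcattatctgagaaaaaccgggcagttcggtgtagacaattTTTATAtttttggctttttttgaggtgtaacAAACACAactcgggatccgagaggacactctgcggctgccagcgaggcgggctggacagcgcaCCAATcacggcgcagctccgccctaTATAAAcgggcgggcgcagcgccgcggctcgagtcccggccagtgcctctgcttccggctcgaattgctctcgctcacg
HIST1H1B (chr6:27867539-27867838, minus strand): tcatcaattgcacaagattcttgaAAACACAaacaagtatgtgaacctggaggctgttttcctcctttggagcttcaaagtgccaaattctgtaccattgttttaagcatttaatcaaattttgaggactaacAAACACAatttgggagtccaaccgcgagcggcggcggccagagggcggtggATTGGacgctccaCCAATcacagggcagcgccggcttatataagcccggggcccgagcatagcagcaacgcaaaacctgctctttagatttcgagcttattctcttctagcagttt
HIST1H2BC (chr6:26123877-26124176, minus strand): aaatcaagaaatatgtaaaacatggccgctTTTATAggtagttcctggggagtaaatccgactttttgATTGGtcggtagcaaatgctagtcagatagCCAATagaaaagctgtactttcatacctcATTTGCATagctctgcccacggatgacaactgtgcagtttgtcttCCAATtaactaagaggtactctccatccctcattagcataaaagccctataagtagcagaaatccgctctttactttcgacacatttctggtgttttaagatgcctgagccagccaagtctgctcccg

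Total counts per library were 24559547 to 37378691, and the 36 histone genes took 0.331% to 0.405% of them. ARID1A was at 8.80 and 12.1 CPM (counts scaled by library size with trimmed means of M values) in wild-type libraries and at 6.66 and 5.61 CPM in knockout libraries (log2 fold change −0.77, SE 0.16, edgeR adjusted p = 0.00274). NCAPH2 was at 24.0 and 25.8 CPM in shRNA control libraries and at 8.98 and 8.74 CPM in knockdown libraries (−1.49, SE 0.10). Summed CPM of 6 clear cell and epithelial markers (PAX8, KRT8, KRT18, EPCAM, CDH1 and NAPSA) was 1867 to 2105 in the 8 libraries. Fibroblast markers (6 genes, COL1A2 and COL3A1 at 0) summed to 0.992 to 1.12 CPM in the knockout and 0.284 to 0.464 CPM elsewhere, and endothelial markers (4 genes, KDR at 0) to 0.157 to 0.219 CPM in the knockout and 0.504 to 1.03 CPM elsewhere. Libraries of a group correlated at 0.994 to 0.997 across genes in log2 CPM, and each pair differed by more than counting error, with chi-square per degree of freedom from 4.31 in the shRNA control to 19.9 in wild type.

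Histone mRNA of the 36 matched genes was concentrated in a few of them. Of the 36 genes, 31 passed the filter on low counts, 30 had a mean of at least 1 CPM over the 8 libraries, and 10 had at least 100 CPM. The 5 with the highest CPM held 52.4% of the summed CPM of the 36 matched genes. Per kilobase of coding length, HIST1H2BD was highest (1503 CPM per kb, mean of 8 libraries), followed by the linker histone gene HIST1H1C (819), HIST1H2BC (583), HIST2H2AA3 (555), HIST1H1B (516), HIST1H1E (448) and HIST1H4C (438). Among H3 genes HIST1H3D had the highest CPM, at 56.5 to 70.9 CPM over all 8 libraries. HIST2H2AA3 ranged from 187 CPM in wild-type replicate 1 to 260 (259.7) CPM in wild-type replicate 2, so its other 6 libraries lay within the range of the wild-type pair. HIST1H1C ranged from 472 to 577 CPM and did not pass the test in either comparison.

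Genes expressed in the testis were at or near 0. HIST1H2AA and HIST1H2BA, a divergent pair of testis H2A and H2B genes, had 0 counts in all 8 libraries, where 3 counts would have been 0.0803 to 0.122 CPM. HIST3H3, the testis H3 gene, HIST1H1A and HIST2H3PS2 had at most 0.104 CPM in any library and were not tested. HIST1H1T, the testis linker histone gene, was low but present: 0.0413 and 0.181 CPM in wild type, 0.301 and 0.313 CPM in the knockout, 0.279 and 0.642 CPM in the shRNA control, and 1.58 and 1.06 CPM in the knockdown. The knockdown libraries were above all others, but neither comparison passed the test (knockdown 2.83-fold, edgeR adjusted p = 0.103; knockout 2.63-fold, edgeR adjusted p = 0.193).

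Several of these genes have near-identical copies, and the counting program shares reads that match more than 1 gene. At least 50% of the 50-base stretches of 10 matched genes also occur in another gene; in 5 of them all do (100%), and in 13 genes none does. HIST2H3A and HIST2H3C had the same value in every library, so they stand for 1 measurement. HIST2H2AA3 and HIST1H3D, whose levels and places in the order are given above, share 100% of theirs, so those levels are uncertain. HIST1H2AI (62.3% of stretches shared), HIST1H2BK (74.1%), HIST2H3D (80.4%), HIST1H4J (81.2%) and HIST1H2AD (98.0%) are uncertain for the same reason. HIST1H1E, HIST1H1B, HIST1H4C and HIST1H4H share 0% of theirs.

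**Figure D1:**
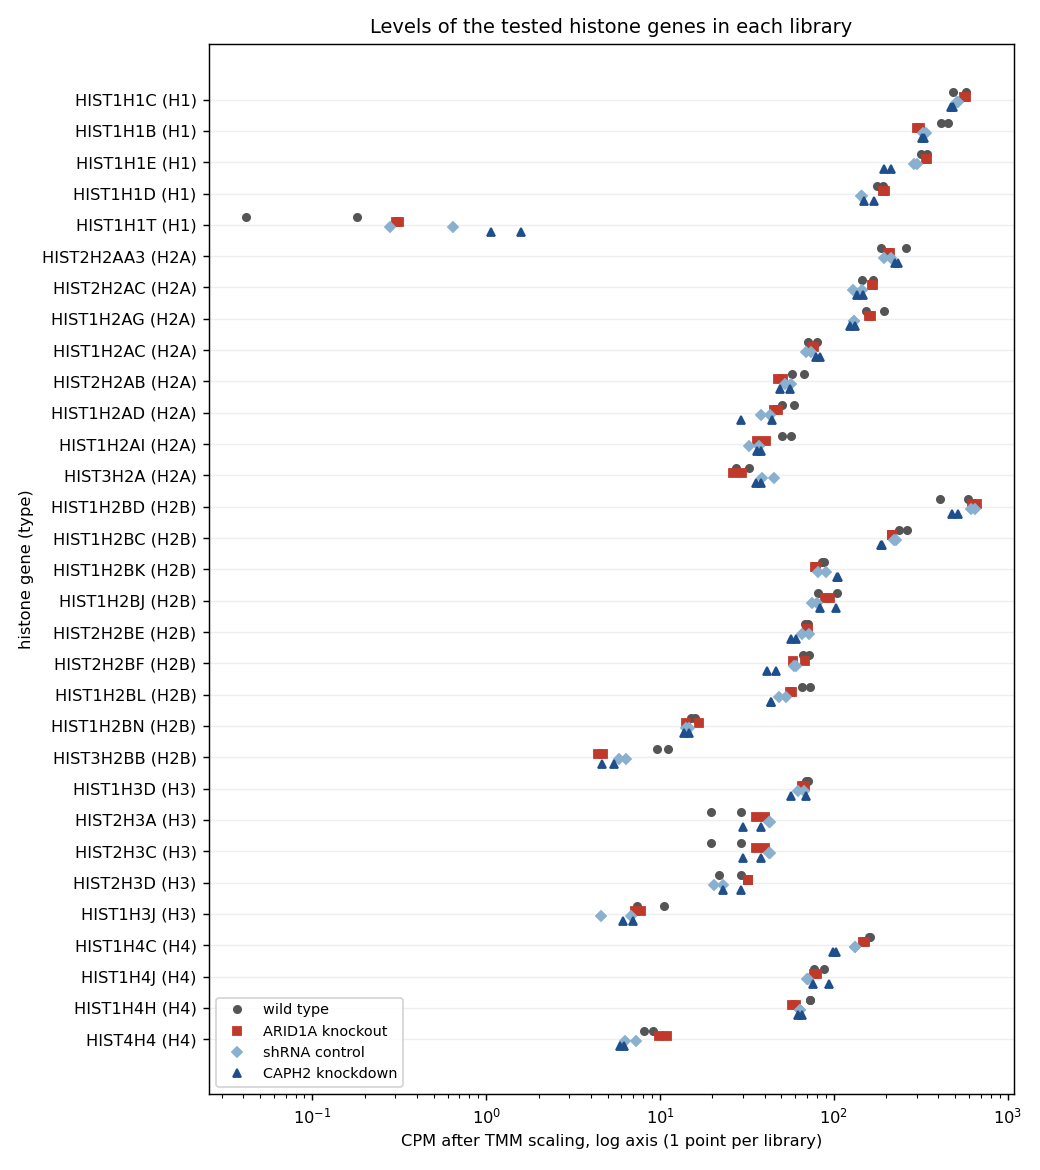
CPM of each of the 31 tested histone genes in each of the 8 libraries (log x axis, 1 point per library, genes ordered by mean CPM within each histone type). HIST1H1B and HIST1H2AI are highest in the wild-type libraries and HIST1H1E lowest in the knockdown libraries.

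Summed over the 36 genes, histone CPM was 4001 and 3907 in wild type, 3929 and 3898 in the knockout, 3594 and 3746 in the shRNA control, and 3319.7 and 3444 in the knockdown. The knockout overlapped wild type (log2 ratio of means −0.01, SD 0.03), and both knockdown libraries lay below both of their controls (−0.12, SD 0.06). The shRNA control itself lay below wild type by a similar amount (log2 ratio −0.11). These sums are given without a test. The knockdown ratio was −0.08 and the knockout ratio −0.08 without HIST1H2BD, the gene with the highest count.

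By type, H2B showed the largest knockdown ratio, from 1187 and 1248 CPM to 1012 and 1079.8 CPM (−0.22, SD 0.08). Much of this came from HIST1H2BD, which went from 613 and 646 to 476 and 515 CPM. HIST1H2BD was not called in the knockdown (−0.35, edgeR adjusted p = 0.0910). H1 went from 1269 and 1304 to 1160 (1159.8) and 1183 CPM (−0.14, SD 0.03), and H4 from 274 and 274 to 247 and 265 CPM (−0.10, SD 0.07). Both types were lower in each knockdown library than in each control. H2A (0.06, SD 0.08) and H3 (−0.12, SD 0.15) overlapped between the groups. As a share of histone CPM, H2B went from 33.2% ± 0.197 to 30.9% ± 0.615 and H2A from 19.5% ± 0.347 to 22.0% ± 0.193 (mean ± SD, n = 2) in the knockdown. In the knockout, only H4 (319 and 328 to 302 and 291 CPM; −0.13, SD 0.05) and H3 (138 and 169 to 176 and 189 CPM; 0.25, SD 0.22) did not overlap wild type. Much of the higher H3 sum came from HIST2H3A and HIST2H3C, which are 1 measurement (mean 24.4 to 38.0 CPM each). HIST2H3D was at 0.33, HIST1H3D at −0.06 and HIST1H3J at −0.27, none of them called.

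**Figure D2:**
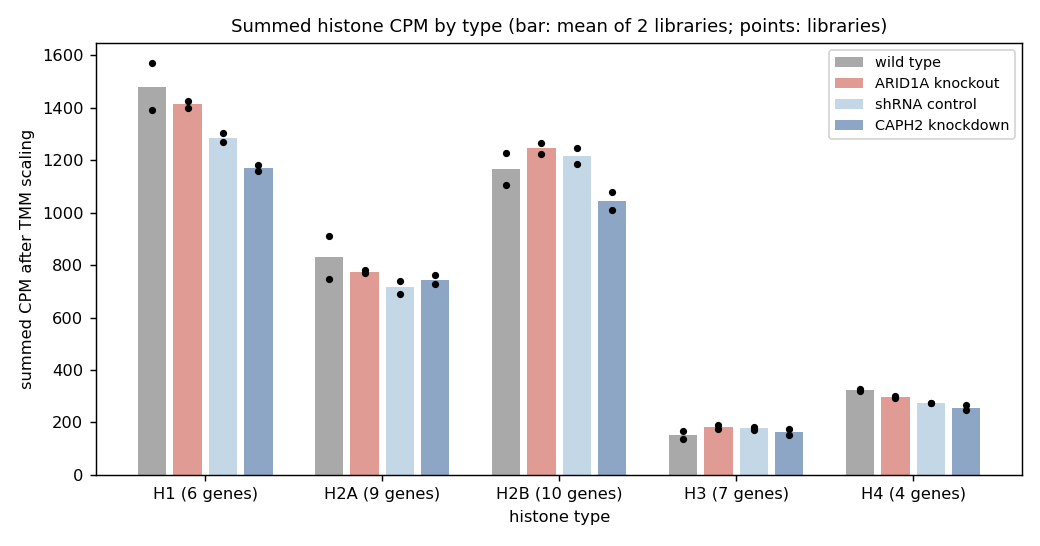
Summed CPM of the matched genes of each histone type (bars: mean of 2 libraries; points: libraries; the number of genes summed is under each type). H2B and H1 are lowest in the knockdown, while for H2A and H3 the knockdown libraries overlap those of the shRNA control.

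The comparison of knockout with wild type asked which histone genes depend on ARID1A. Of the 31 tested genes, 3 rose and 7 fell (adjusted p under 0.05), which is 32.3% of them; over all 16657 genes tested the share was 34.5% (16.8% up, 17.8% down), so the share among histone genes was near the background. Their median log2 fold change was −0.07, against 0.00 over all genes. The genes that fell were HIST3H2BB, HIST1H1B, HIST1H2AI, HIST2H2AB, HIST1H4H, HIST1H2BL and HIST1H2BC, and those that rose were HIST1H2BD and the copies HIST2H3A and HIST2H3C.

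HIST3H2BB, an H2B gene of the small HIST3 cluster, was at 9.55 and 11.2 CPM in wild type, 4.71 and 4.39 CPM in the knockout, 5.82 and 6.37 CPM in the shRNA control and 4.63 and 5.42 CPM in the knockdown. The wild-type libraries stood above the other 6. It fell in the knockout by 1.19 on the log2 scale (SE 0.15, edgeR adjusted p = 9.26e-05). HIST1H1B, which encodes the linker histone H1.5, was at 455 and 412 CPM in wild type, 302 and 312 CPM in the knockout, 326 and 339 CPM in the shRNA control, and 321 and 331 CPM in the knockdown. Here too the wild-type pair stood above the other 6 libraries, which lay between 302 and 339 CPM. HIST1H1B fell in the knockout by 0.50 (SE 0.06, edgeR adjusted p = 5.02e-05). HIST1H2AI, an H2A gene, was at 50.4 and 56.4 CPM in wild type, 41.0 and 36.2 in the knockout, 32.6 and 37.3 in the shRNA control, and 38.3 and 36.2 in the knockdown. It fell in the knockout by 0.47 (SE 0.09, edgeR adjusted p = 0.00173), with the wild-type pair again above all other libraries.

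HIST1H4H, an H4 gene, was at 73.0 and 72.5 CPM in wild type and 60.6 and 57.1 CPM in the knockout, with 63.8 and 64.1 CPM in the shRNA control (−0.31, SE 0.06, edgeR adjusted p = 0.00189). HIST2H2AB, an H2A gene, went from 57.2 and 67.4 to 50.7 and 47.7 CPM (−0.34, SE 0.09, edgeR adjusted p = 0.0126). HIST1H2BL (−0.29) and HIST1H2BC (−0.21), both H2B genes, also fell. HIST1H2BC lost the call without knockout replicate 1 (edgeR adjusted p = 0.0761) or 2 (0.0851), with total counts as the scale (0.0537) and in a fit of 4 libraries alone (0.0509), and its value was −0.13 without wild-type replicate 2. HIST2H2AB lost it without wild-type replicate 2 (−0.22, edgeR adjusted p = 0.0923) or knockout replicate 2 (−0.30, 0.0990), and HIST1H2BL without knockout replicate 1.

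Among the genes that rose, HIST2H3A and HIST2H3C were each at 19.6 and 29.1 CPM in wild type, 35.8 and 40.2 in the knockout, 42.3 and 42.7 in the shRNA control, and 38.1 and 30.1 in the knockdown (knockout 0.64, SE 0.15, edgeR adjusted p = 0.00786). The wild-type pair was below the other 6 libraries. The size depended on the wild-type library kept, with 0.38 without wild-type replicate 1 and 0.95 without replicate 2, and the call was lost without knockout replicate 2 (edgeR adjusted p = 0.0664). HIST1H2BD was at 592 and 410.3 CPM in wild type, 669 and 625 in the knockout, 613 and 646 in the shRNA control, and 476 and 515 in the knockdown. It rose in the knockout by 0.37 (SE 0.13, edgeR adjusted p = 0.0409), but the wild-type pair spanned more than that difference. The call was lost without wild-type replicate 2 (0.13, edgeR adjusted p = 0.116) or knockout replicate 1 (0.32, 0.180) or 2 (0.42, 0.0888), and the value was 0.65 without wild-type replicate 1. It was also lost under DESeq2 (adjusted p = 0.154) and in a fit of 4 libraries alone (edgeR adjusted p = 0.0816).

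Since the wild-type pair stood apart for several of these genes, the knockout was also compared with the shRNA control, a comparison added after the values were seen. There 9 of 31 histone genes were called, 7 up and 2 down, against 41.8% of all genes. Only 1 of the 10 knockout calls against wild type was shared, HIST3H2BB (−0.42, edgeR adjusted p = 0.0449). The matching share over all genes was not counted. In the related lists below, 11 of 14 neighbour, 10 of 15 S phase and 6 of 8 histone mRNA processing calls were shared. For chaperones it was 5 of 7 and for replication-independent histones 1 of 4. Differences between these shares were not tested. Among those 10 histone genes, HIST1H1B was at −0.12 (edgeR adjusted p = 0.139) and HIST1H4H at −0.12 (0.126). HIST1H2AI (0.14), HIST1H2BL (0.16), HIST2H3A and HIST2H3C (−0.16) changed sign without passing the test. HIST1H1D, which encodes H1.3, rose by 0.42 on the log2 scale, HIST4H4 by 0.62 and HIST3H2A fell by 0.59; against wild type these were 0.07, 0.27 and −0.10 and did not pass. The summed ratio was 0.09 against the shRNA control. The 2 controls differ in the hairpin construct, and any other difference between them cannot be told apart from it.

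The comparison of knockdown with shRNA control asked which histone genes depend on CAPH2. Of 31 tested genes, 1 rose and 5 fell, which is 19.4%, against 15.8% over all genes (7.62% up, 8.22% down). The median over the histone genes was −0.05, against 0.00 over all genes. HIST1H1E, HIST2H2BF, HIST1H4C, HIST1H2BC and HIST2H2BE fell, and HIST1H2BK rose.

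HIST1H1E, which encodes the linker histone H1.4, was at 291 and 301 CPM in the shRNA control and at 195 and 214 CPM in the knockdown, with 346 and 319 CPM in wild type and 345 and 341 CPM in the knockout. The knockdown pair was below all 6 other libraries. HIST1H1E fell by 0.53 on the log2 scale (SE 0.06, edgeR adjusted p = 0.000130), a change of −30.8%. HIST1H4C, an H4 gene, was at 133 and 132 CPM in the shRNA control and 98.9 and 103 CPM in the knockdown, with 161 and 158 CPM in wild type and 151 and 147 CPM in the knockout. It fell by 0.39 (SE 0.05, edgeR adjusted p = 0.000357), and its knockdown pair was again the lowest of the 8 libraries. HIST2H2BF, an H2B gene, was at 60.6 and 59.3 CPM in the shRNA control and 41.1 and 46.3 CPM in the knockdown, with 58.6 to 72.3 CPM in the other 4 libraries. It fell by 0.45 (SE 0.09, edgeR adjusted p = 0.00387). These 3 calls held in each of the 12 alternative settings run for this comparison.

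HIST1H2BC went from 223 and 227 to 188 and 186 CPM (−0.27, SE 0.06, edgeR adjusted p = 0.00893). Its call was lost when any of the 4 libraries was left out, with adjusted p from 0.0518 to 0.0840 and values from −0.29 to −0.26. HIST2H2BE, a further H2B gene, went from 65.3 and 71.9 to 56.7 and 60.7 CPM (−0.23, SE 0.07, edgeR adjusted p = 0.0367). It lost the call without shRNA control replicate 2 (−0.15, edgeR adjusted p = 0.304) or knockdown replicate 1 (−0.19, 0.220) or 2 (−0.28, 0.0757), and under DESeq2 (adjusted p = 0.0529). HIST1H2BK, an H2B gene, was the only one called higher, from 81.4 and 89.7 to 105 (104.5) and 106 CPM (0.30, SE 0.06, edgeR adjusted p = 0.00518), and lost the call without shRNA control replicate 1 (0.23, edgeR adjusted p = 0.0908).

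**Figure D3:**
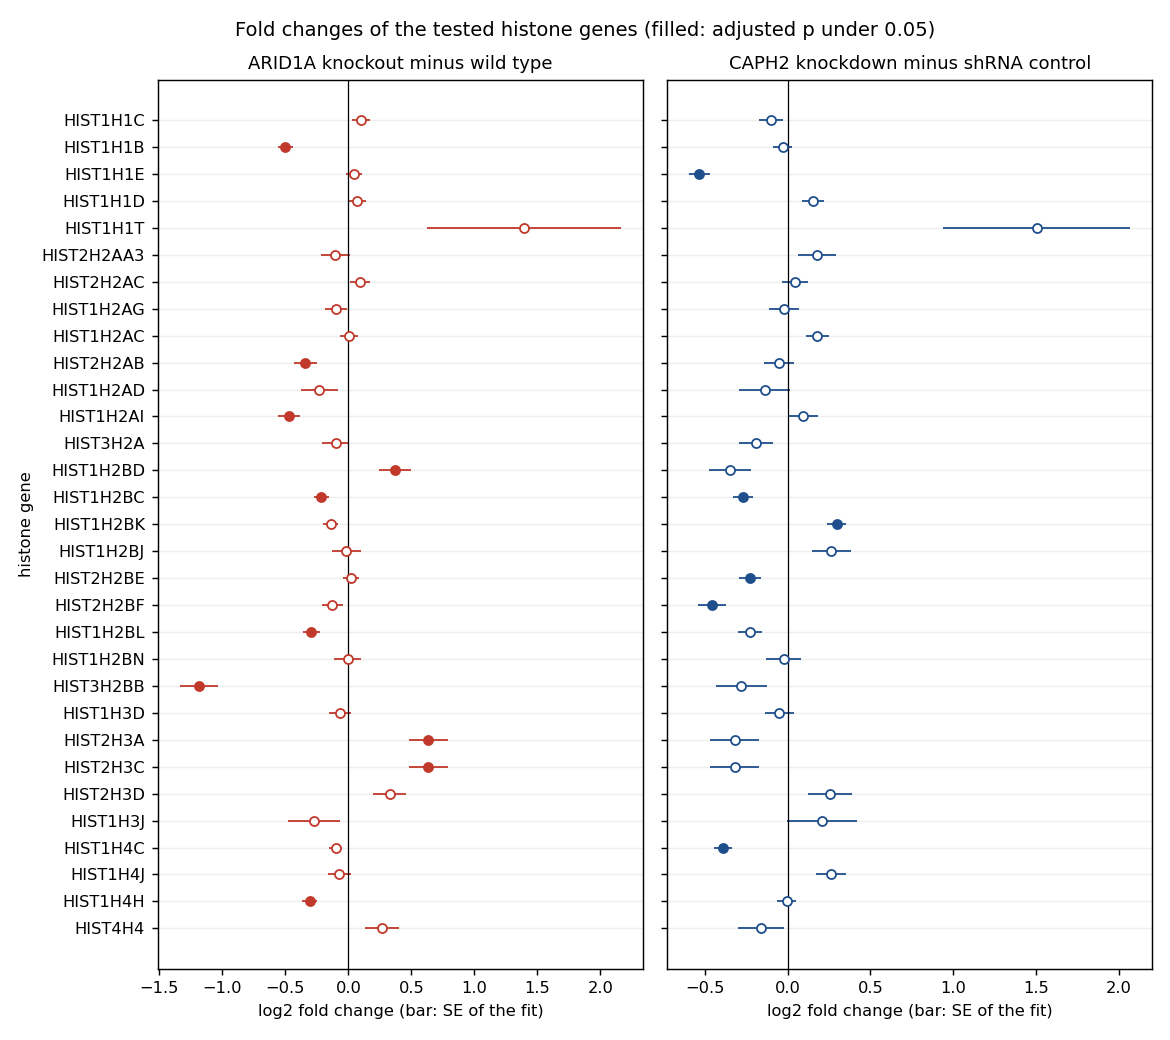
Log2 fold change of each tested histone gene in the knockout against wild type (left) and the knockdown against the shRNA control (right); bars are the SE of the fit and filled points have an adjusted p under 0.05. HIST1H2BC is the 1 gene filled on both sides, and most genes lie within 0.5 of 0.

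**Figure D4:**
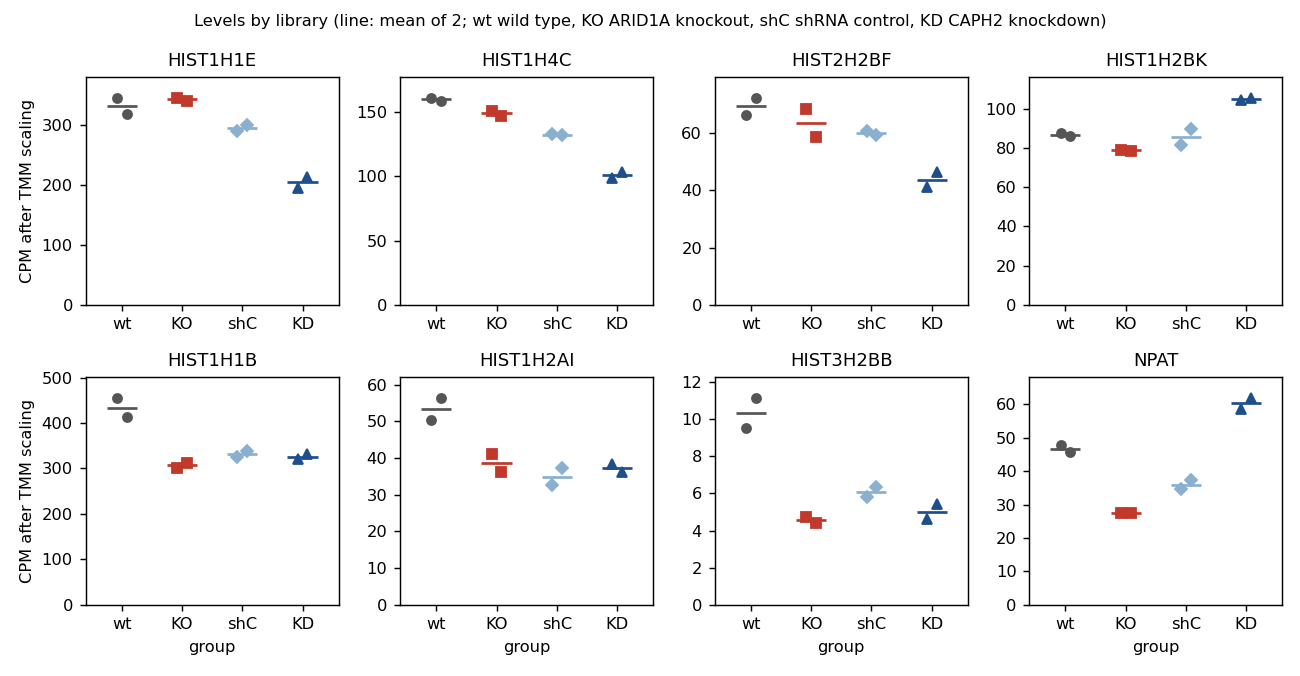
CPM per library of 7 histone genes and NPAT in the 4 groups (y axes from 0; horizontal lines are means of 2 libraries). In the top row HIST1H1E, HIST1H4C and HIST2H2BF are lowest and HIST1H2BK highest in the knockdown; in the bottom row the first 3 genes are highest in wild type.

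HIST1H2BC was the only histone gene called in both comparisons, which is 10% of the 10 knockout calls and 16.7% of the 6 knockdown calls, and 16 genes were called in neither. Over all genes, 1518 were called in both, or 26.4% of the knockout calls and 57.5% of the knockdown calls. The difference between these shares was not tested. The difference between the effects was called for 10 of 31 genes, 5 in each direction, or 32.3% against 26.3% over all genes (12.3% up, 14.0% down). HIST1H1E (knockout minus knockdown 0.58, SE 0.09, edgeR adjusted p = 0.000494) and HIST1H1B (−0.47, SE 0.08, edgeR adjusted p = 0.00143) thus differed in opposite directions. Both encode linker histones. Means of HIST1H1B were 434 CPM in wild type and 332 in the shRNA control, against 307 in the knockout and 326 in the knockdown. Those of HIST1H1E were 333 and 296 CPM, against 343 and 205. The part of the 2 controls in these differences was not tested.

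Several H2A and H2B genes are divergent pairs whose starts lie 219 to 323 bases apart, so that 1 stretch of DNA serves both. In the pair HIST1H2BC and HIST1H2AC (219 bases), HIST1H2BC fell in the knockdown by 0.27 while HIST1H2AC was at 0.18 (edgeR adjusted p = 0.104). In the pair HIST2H2BE and HIST2H2AC (323 bases), HIST2H2BE fell by 0.23 and HIST2H2AC was at 0.05. In the knockout, HIST3H2BB fell by 1.19 and its partner HIST3H2A (234 bases) was at −0.10. HIST1H2BL (−0.29) and HIST1H2AI (−0.47), 268 bases apart, both fell in the knockout. The difference between partners was not tested.

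In the HIST1 region the histone genes lie in 4 runs separated by gaps of more than 200 kb in GENCODE order. These runs were drawn after the values were seen and are described without a test. The fourth run holds HIST1H2BL, HIST1H2AI, HIST1H4J, HIST1H2BN, HIST1H1B and HIST1H3J. Against wild type, 3 of these 6 genes fell in the knockout and all 6 were below 0 (median −0.28). In the knockdown 0 of 6 were called. The shares over all genes were 34.5% and 15.8%. Against the shRNA control, the knockout values in that gene order were 0.16, 0.14, 0.15, 0.10, −0.12 and 0.39. None of these passed the test. In the second run, from HIST1H1A to HIST1H4H, 1 of 11 tested genes rose and 2 fell in the knockout, and 3 fell in the knockdown. HIST1H2BK, the gene higher in the knockdown, is in the third run with HIST1H2BJ (0.27) and HIST1H2AG (−0.02).

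The genes between and beside these runs were compared with them. Of 26 tested protein-coding genes that are not histones and lie within the region or 500000 bases of it, 13 rose and 1 fell in the knockout (median 0.34), while of the 20 tested HIST1 genes 1 rose and 5 fell (median −0.08). These are 53.8% and 30% called, against 34.5% of all genes, so that the HIST1 share was near the background. Against the shRNA control the neighbours showed 15 up and 0 down (median 0.36), where 41.8% of all genes were called. There the 31 tested histone genes of all clusters showed 7 up and 2 down (median 0.08). The summed HIST1 ratio was 0.10 there and −0.02 against wild type, so the HIST1 genes did not fall as a group against both controls. SLC17A1, a phosphate and urate transporter, went from 0.992 and 0.833 to 6.08 and 5.56 CPM (2.67, SE 0.26), SLC17A3, a related transporter, from 0.289 and 0.435 to 3.70 and 2.51 CPM (3.08, SE 0.50), and BTN3A3, a butyrophilin, from 4.67 and 3.51 to 9.84 and 10.2 CPM (1.30, SE 0.19). In the knockdown 0 neighbours rose and 5 fell (19.2%, against 15.8% of all genes), among them the zinc finger genes ZSCAN12 (−1.17), ZSCAN31 (−0.75) and ZNF165 (−0.36); 2 to 3 of the 5 remained called when a library was left out. SLC17A3 had 0 counts in both knockdown libraries and 0.0619 and 0.223 CPM in the shRNA control.

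**Figure D5:**
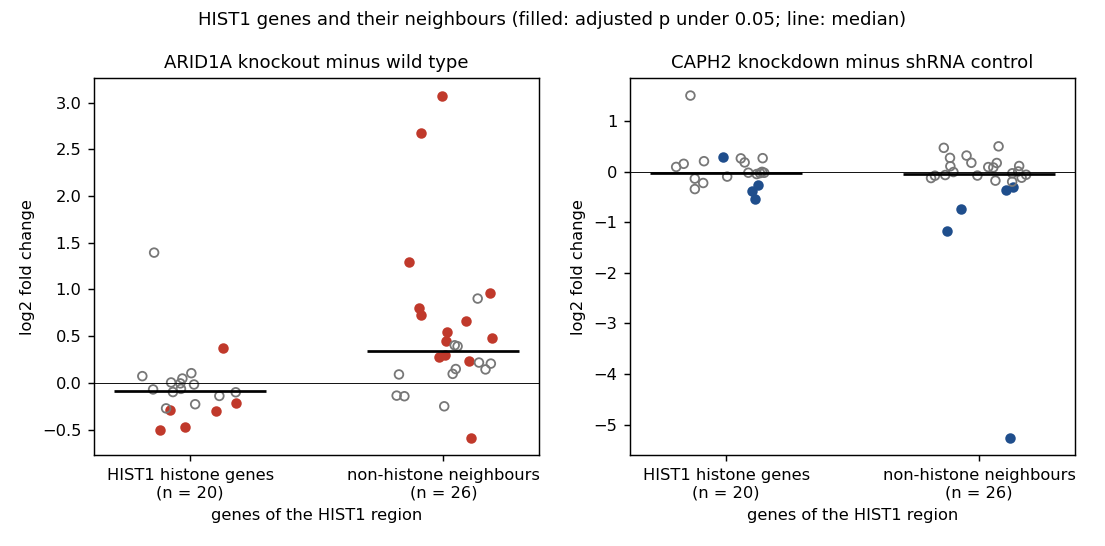
Log2 fold changes of the tested HIST1 histone genes and of their non-histone neighbours in the knockout (left) and the knockdown (right); filled points have an adjusted p under 0.05, lines are medians, and points are spread sideways for legibility. In the knockout against wild type most neighbours lie above 0 and most histone genes at or below it. The lowest point on the right is SLC17A3, whose fitted value has no counts behind it in the knockdown.

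Genes that make, cut and degrade histone mRNA were taken from a list of 30 tested genes. In the knockout 1 rose and 7 fell (26.7%, median −0.04), against 34.5% of all genes, and in the knockdown 6 rose and 1 fell (23.3%, median 0.01), against 15.8%. Against the shRNA control in place of wild type, 10 of these 30 genes rose and 8 fell in the knockout, where 41.8% of all genes were called. Without any 1 of its 4 libraries, 2 of the 7 knockdown calls remained. NPAT, the coactivator named above, was at 47.7 and 45.7 CPM in wild type, 27.6 and 27.5 in the knockout, 34.6 and 37.4 in the shRNA control, and 58.6 and 62.0 in the knockdown. It fell in the knockout by 0.76 (SE 0.07) and rose in the knockdown by 0.74 (SE 0.07), and no library of a treated group overlapped its controls. Against the shRNA control the knockout was at −0.39 for NPAT. Of the 20 tested protein-coding genes on each side of NPAT on chromosome 11, 30 of 40 fell and 1 rose in the knockout (median −0.70), and 5 fell and 3 rose in the knockdown (median 0.03). The shares called were 77.5% in the knockout, against 34.5% of all genes, and 20% in the knockdown, against 15.8%. Their part in the NPAT values was not tested.

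HINFP, which binds H4 promoters, went from 8.27 and 6.63 to 4.44 and 4.41 CPM in the knockout (−0.75, SE 0.19), and TUT7, which adds uridines to histone mRNA during decay, from 266 and 245 to 167 and 162 CPM (−0.63, SE 0.06). TUT7 fell in the knockdown too (−0.28, SE 0.06). CPSF3, the nuclease that cuts histone pre-mRNA, rose in the knockout (0.20, SE 0.06). In the knockdown CSTF2T, a cleavage factor subunit, rose by 0.45 (SE 0.09) and SNRPE, a core protein of small nuclear ribonucleoproteins, by 0.24 (SE 0.06). SLBP was at 160 (160.3) to 185 CPM in all 8 libraries (0.02 in the knockout, 0.06 in the knockdown), and neither SLBP nor CASP8AP2 (−0.11 and 0.08) nor LSM11 (0.04 and −0.03), parts of the locus body and the cleavage machinery, passed the test in either comparison.

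S phase and replication genes were taken as a list of 32. In the knockout 3 rose and 12 fell (46.9%, against 34.5% of all genes; median −0.07), with E2F2 (−0.71), TYMS (−0.47) and PCNA (−0.47) the largest falls and CDC25A (0.30), RFC3 (0.28) and GINS1 (0.22) the rises. PCNA, the replication clamp, was at 407 and 417 CPM in wild type against 288 and 308 in the knockout, 309 and 312 in the shRNA control, and 317 and 316 in the knockdown, so that its wild-type pair stood apart as that of HIST1H1B did. Against the shRNA control 11 of these 32 genes rose and 6 fell in the knockout, where 41.8% of all genes were called. Without knockout replicate 1 or 2 the 15 calls became 8 and 7. In the knockdown 2 rose (CDC45 0.26 and RRM2 0.24) and 4 fell (18.8%, against 15.8% of all genes), with 0 to 1 called when a library was left out. Their part in the histone values was not tested.

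Replication-independent histone genes are also made outside S phase. Of 12 tested, 4 rose and 0 fell in the knockout, which is 33.3%, against 34.5% of all genes. H1F0, the linker histone of resting cells, rose from 13.5 and 12.5 to 20.9 and 20.4 CPM (0.67, SE 0.08), H1FX by 0.65, H2AFJ by 0.47 and H3F3B, which encodes H3.3, by 0.40. H1F0 also rose in the knockdown, from 19.5 and 18.5 to 28.7 and 28.0 CPM (0.57, SE 0.08), where H2AFV (−0.23) and H2AFY2 (−0.33) fell. The knockdown count of 3 (25%, against 15.8% of all genes) became 1 without shRNA control replicate 1 or knockdown replicate 1 or 2. Against the shRNA control in place of wild type, 3 of these 12 genes rose and 3 fell in the knockout, where 41.8% of all genes were called. There H2AFJ was at 0.47, while H1F0 (0.12, edgeR adjusted p = 0.273), H3F3B (0.12, 0.0652) and H1FX (−0.05, 0.787) did not pass the test.

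Histone chaperones, which carry histones to and from DNA, were a list of 25 tested genes. In the knockout 3 rose and 4 fell (28%, against 34.5% of all genes; median −0.06), among them CHAF1A (0.45), ASF1A (0.30) and ANP32E (0.26) up and UBN2 (−0.42), UBN1 (−0.31) and ASF1B (−0.28) down. ASF1A, an H3 and H4 chaperone, went from 19.0 and 18.9 to 21.7 and 25.0 CPM in the knockout and from 12.5 and 13.5 to 16.7 and 16.9 CPM in the knockdown (0.37, SE 0.10). CABIN1 (−0.41), SSRP1 (−0.22) and NAP1L1 (−0.19) fell in the knockdown, where 4 of 25 were called (16%, against 15.8% of all genes). In the knockout 5 of 25 chaperone genes rose and 7 fell against the shRNA control, where 41.8% of all genes were called. A fit of 4 libraries alone called 4 against wild type and 7 in the knockdown. Without knockout replicate 2 the 7 knockout calls became 2, without wild-type replicate 2 they became 4, and with a library left out 0 to 1 of the 4 knockdown calls remained.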

How the data were processed

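The authors deposited 1 table of RSEM expected counts per Ensembl gene, 1 column per library. Per the submitters' processing notes, Bowtie2 and RSEM 1.2.12 were used with hg19; the Bowtie2 version, annotation release and whether counting used strand were not given in the sources used here. All deposited values were whole, so no rounding was needed. RSEM shares reads among genes they match, so single near-identical histone genes are uncertain. Symbols came from GENCODE 29 by Ensembl ID (52301 of 57736 IDs); hg19 differs from the GRCh38 reference, so gene positions served only for order and distance.

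The test was edgeR 4.0.16 (R 4.3.3): filterByExpr by group (16657 genes), TMM scaling, and the quasi-likelihood test on all 8 libraries without a block (4 residual degrees of freedom, common biological coefficient of variation 7.74%). P-values were Benjamini-Hochberg adjusted over all genes and called under 0.05. Levels are CPM after TMM; errors are SD over 2 libraries or SE of the fit. A floor of 3 counts covers counting error only. The test was checked on simulated data that gave all genes and groups 1 common spread. That check does not cover the wider spread within the wild-type pair. Alternatives were other scalings and filters, DESeq2 1.42.0, 4 libraries alone, a replicate block and leaving out each library; with a group of 1 library left, that library is assumed to vary like the others.

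The members, lists and tests were chosen with earlier results of these data known. Genes named were the member with the highest CPM of each type, called members (up to 5 rises and 5 falls by comparison), those called in the difference (up to 5), up to 3 called genes per direction of each related list, and NPAT, SLBP, CASP8AP2 and LSM11; HIST1H1D, HIST4H4, HIST3H2A and the divergent partners were chosen after their values were seen. The leukocyte marker list is not reported here.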

Additional observations from a re-analysis of the deposited data

Results flagged for a closer look

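The effect of the knockout and that of the knockdown differed for 10 histone genes by a test of the difference itself (edgeR quasi-likelihood test, adjusted p under 0.05); the values are the knockout log2 fold change minus that of the knockdown. The difference was above 0 for HIST2H3A (0.95) and HIST2H3C (0.95), which are 1 measurement, HIST1H2BD (0.71), HIST1H1E (0.58) and HIST1H4C (0.29). It was below 0 for HIST3H2BB (−0.91), HIST1H2AI (−0.56), HIST1H1B (−0.47), HIST1H2BK (−0.44) and HIST1H4H (−0.30). Each value also holds any gap between wild type and the shRNA control, whose part was not tested. HIST2H3A had means of 24.4 CPM in wild type and 42.5 in the shRNA control, against 38.0 in the knockout and 34.1 in the knockdown. HIST1H2AI had 53.4 and 34.9 CPM, against 38.6 and 37.2. HIST1H2BK had 86.7 and 85.5 CPM in the controls, against 78.7 and 105. HIST1H2BD was at 0.48 without wild-type replicate 2. HIST1H4C lost the call without knockout replicate 1 (0.27, edgeR adjusted p = 0.0560), shRNA control replicate 1 (0.28, 0.0602) or 2 (0.30, 0.0504) or knockdown replicate 1 (0.26, 0.0654). HIST1H4H lost it without knockout replicate 2 (−0.26, edgeR adjusted p = 0.0931), shRNA control replicate 1 (−0.30, 0.0749) or 2 (−0.30, 0.0690) or knockdown replicate 1 (−0.25, 0.103). Groups of 2 libraries are too small to look for single outlying libraries.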

How the results depend on the processing

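Limits: 2 libraries per group, 35 histone genes not analysed, and counts shared between near-identical copies. The same replicate number did not pair libraries: their deviations correlated at 0.0296 (knockout and wild type) and −0.0154 (knockdown and shRNA control), and with a replicate block 11, 8 and 10 histone genes were called in the knockout, the knockdown and their difference, against 10, 6 and 10. Leaving out a library gave 5 to 13 knockout calls among histone genes (5 without knockout replicate 2), 4 to 5 knockdown calls, 8 to 17 for the difference (17 without wild-type replicate 1), and, over all genes, 3928 to 5651 knockout calls and 1360 to 1524 knockdown calls against 2639. Knockdown calls among histone genes were 13 without a filter on low counts and 13 in a fit of 4 libraries alone, which includes the 6. The summed knockout ratio was 0.0231 with total counts as the scale, −0.0801 without HIST1H2BD and 0.0925 against the shRNA control, in place of −0.01. Against the shRNA control, many histone genes changed sign in the knockout. Among them were HIST1H4C (0.17, from −0.10), HIST1H2AI (0.14), HIST1H2BL (0.16), HIST2H3A (−0.16) and HIST2H3C (−0.16). HIST1H2AG (0.31, from −0.10), HIST1H2AD (0.21, from −0.23) and HIST1H3J (0.39, from −0.27) did so too, and the list is not complete. The cause of these changes was not tested.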
